A study of Mus musculus with 198 samples.

Results

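The strains described here are the recombinant inbred (RI) mouse strains of 3 sets, BXD, AXB/BXA and BXH, divided by how strongly their hippocampus arrays read Ctsc, the gene of the lysosomal protease cathepsin C on chromosome 7. Each RI strain is inbred from a cross of the B6 strain with a second parent, which is DBA for BXD, AJ for AXB and BXA, and C3H for BXH. The classes were chosen by measured values: a strain was placed in the Ctsc-high, B6-like class when its Ctsc probe ILMN_3008858 lay above the midpoint of the B6 and DBA arrays in hippocampus, and in the Ctsc-low class when it lay below. Of the 69 RI strain arrays of hippocampus 68 were used, 37 Ctsc-high and 31 Ctsc-low, out of 100 hippocampus arrays in the series. In striatum 67 of them had an array, 37 Ctsc-high and 30 Ctsc-low, out of 98. The Ctsc-high strains were 18 BXD, 15 AXB/BXA and 4 BXH strains, and the Ctsc-low strains were 12 BXD, 12 AXB/BXA and 7 BXH strains, of which BXH2 had no striatum array used here. All strains belong to the Hybrid Mouse Diversity Panel, a collection of inbred and RI strains assembled for association mapping. Total RNA of whole hippocampus or whole striatum was read on Illumina MouseRef-8 arrays. The study's methods describe young adult males for its behavioural tests. The labels name no treatment and no engineered allele, while the study's methods put all strains through fear conditioning with footshock and memory tests and do not state whether the arrayed mice were among those tested. Each strain had 1 array per tissue, so every spread below is a spread between strains and not between mice of a strain. Strain names are given without the substrain suffix of the labels.

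An RI strain fixes, at every position, the allele of one parent or the other, and it inherits chromosomes in long unbroken stretches. Strains sorted by one gene are therefore also sorted, in part, at the genes beside it, and less so farther along the chromosome. Genes of chromosome 7 are for this reason described as linked genes and genes of all other chromosomes as unlinked genes. Cathepsin C, also called dipeptidyl peptidase I, removes pairs of amino acids from protein ends. It is best known for activating the granule serine proteases of neutrophils, mast cells and cytotoxic lymphocytes, and in the brain it is made mainly by microglia.

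The Ctsc level that defined the classes fell into a pair of bands with nothing between them. On the log2 signal scale probe ILMN_3008858 read from 8.2 to 9.06 with a median of 8.7 in the Ctsc-high strains, against 6.96 to 7.49 with a median of 7.12 in the Ctsc-low strains. The dividing midpoint was 7.943, between B6 at 8.609 and DBA at 7.277. AJ read 7.027 and C3H 7.361, so all 3 other parents fell on the Ctsc-low side. The strains nearest to the midpoint were AXB15 at 8.204 and BXD33 at 8.332 among the Ctsc-high strains, and BXD24a at 7.491 and BXA2 at 7.366 among the Ctsc-low strains. In striatum, which the division did not use, the same probe read 8.03 to 9.04 in the Ctsc-high strains and 7.07 to 7.5 in the Ctsc-low strains. All 67 strains with both arrays fell on the same side of the striatum midpoint of 7.938. The probe passed the detection limit (detection p under 0.01) in 37 of 37 Ctsc-high strains and in 0 of 31 Ctsc-low strains in hippocampus, and in 37 of 37 and 0 of 30 in striatum. The Ctsc-low readings are thus at background, and the difference in means, 1.55 in hippocampus and 1.4 in striatum, is limited by that background.

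Both other Ctsc probes followed the same division with smaller differences. ILMN_3008859 averaged 7.8 ± 0.13 in Ctsc-high and 7.01 ± 0.15 in Ctsc-low hippocampus (SD, n = 37 and 31). ILMN_1238486 averaged 7.69 ± 0.18 in Ctsc-high and 7.04 ± 0.12 in Ctsc-low hippocampus. Neither was detected in any Ctsc-low strain in either tissue, and their classes did not overlap except for ILMN_3008859 in striatum, where the ranges were 7.17 to 8.15 in Ctsc-high and 6.9 to 7.34 in Ctsc-low strains. The difference of ILMN_3008858 was similar within the sets, at 1.55 in BXD, 1.54 in AXB/BXA and 1.59 in BXH hippocampus. Since Ctsc set the classes, these values are a description and no test was made on any of its 3 probes.

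**Figure D1:**
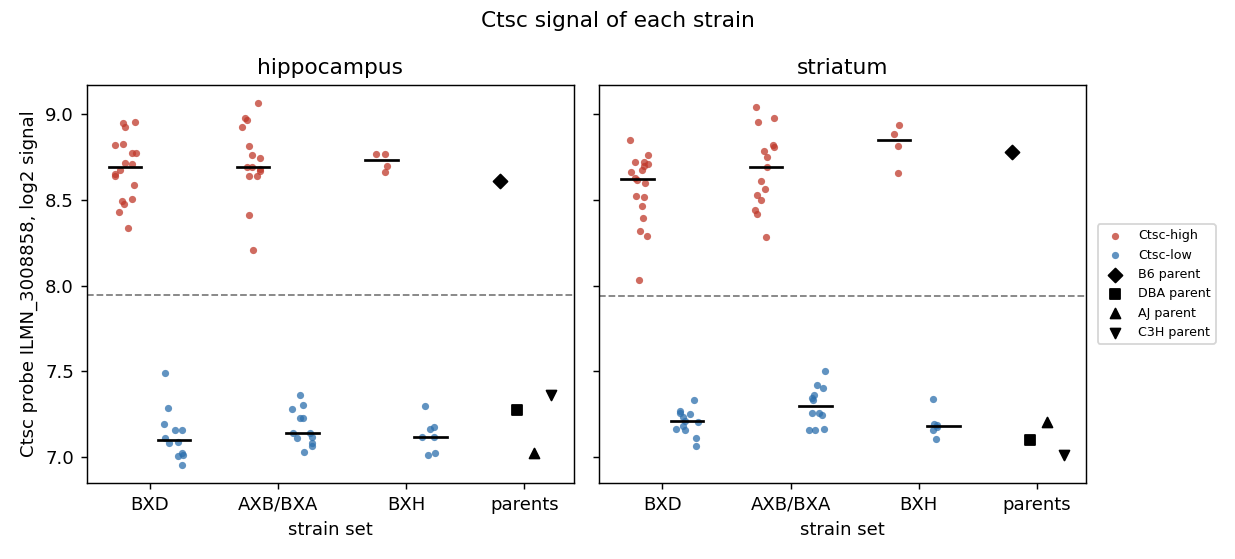
Log2 signal of Ctsc probe ILMN_3008858 in each RI strain by strain set, Ctsc-high strains in red on the left of each pair and Ctsc-low strains in blue on the right, with hippocampus and striatum in separate panels. Black bars are medians, black marks are the parental arrays and the dashed line is the midpoint of B6 and DBA, 7.943 in hippocampus and 7.938 in striatum. In hippocampus AXB15, at 8.204, lies closest to the line, and in striatum BXD42, a Ctsc-high strain, at 8.033.

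The promoter windows of Ctsc, Tmem126b and Prcp are shown. Among tested genes that the platform annotation places distal to Ctsc, Tmem126b and Prcp are the nearest with a class difference. A probe that the platform annotation does not place, and that may lie nearer, is described further on. The class difference of Tmem126b was larger in BXD and BXH than in AXB/BXA, and that of Prcp was largest in AXB/BXA, as described further on. The sequences are RefSeq's, from build GRCm38.p6, and hold 300 bases around the annotated start, read on the gene's own strand. They belong to the reference strain and carry none of the differences between the parents. Capitals mark matches on either strand to the E-box CACGTG, the GC box GGGCGG, the CCAAT box CCAAT and the TATA box TATAAA. No match overlapped another.
Ctsc, plus strand, chr7:88277835-88278134: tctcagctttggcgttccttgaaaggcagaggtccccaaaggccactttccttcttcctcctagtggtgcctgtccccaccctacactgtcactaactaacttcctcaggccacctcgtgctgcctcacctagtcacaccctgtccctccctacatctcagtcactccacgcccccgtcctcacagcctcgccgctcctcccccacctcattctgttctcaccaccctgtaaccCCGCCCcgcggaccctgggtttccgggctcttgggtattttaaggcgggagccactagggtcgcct
Tmem126b, minus strand, chr7:90475946-90476245: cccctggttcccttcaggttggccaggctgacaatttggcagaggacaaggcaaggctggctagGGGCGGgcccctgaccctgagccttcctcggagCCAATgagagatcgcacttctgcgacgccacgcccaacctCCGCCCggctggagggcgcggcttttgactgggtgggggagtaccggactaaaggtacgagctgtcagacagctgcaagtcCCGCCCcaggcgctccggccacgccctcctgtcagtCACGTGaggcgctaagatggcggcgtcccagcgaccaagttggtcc
Prcp, plus strand, chr7:92875003-92875302: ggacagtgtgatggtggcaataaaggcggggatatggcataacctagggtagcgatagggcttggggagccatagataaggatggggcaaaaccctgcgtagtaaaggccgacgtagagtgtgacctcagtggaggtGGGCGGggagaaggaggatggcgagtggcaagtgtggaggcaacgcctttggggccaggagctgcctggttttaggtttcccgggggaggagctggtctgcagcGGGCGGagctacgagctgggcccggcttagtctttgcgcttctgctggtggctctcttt
The GC box was matched 1 time in the Ctsc window, 3 times in that of Tmem126b and 2 times in that of Prcp, and it occurs in 35.7% of the 32841 promoter windows of the same length. Only Tmem126b of these 3 held a CCAAT box or an E-box, 1 of each, against 37.4% and 7.15% of all windows. None of them held a TATA box, which 13.6% of all windows do.

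Some facts of the arrays bear on what follows. The share of probes detected per array was 35.2 to 49.5% in Ctsc-high and 40.1 to 47% in Ctsc-low hippocampus, and 40.9 to 46.4% and 41.4 to 46.3% in striatum. Hippocampus and striatum arrays of one strain were matched through the 500 unlinked probes that correlated best between the tissues. Of the strains used, AXB15, AXB19 and BXD24a were not each other's best match across the tissues: the hippocampus array labelled AXB19 resembled the striatum array labelled AXB15 (r = 0.795, against 0.315 with its own). The hippocampus array labelled AXB15 resembled the striatum array labelled AXB19b (r = 0.702, against 0.216 with its own). The hippocampus array AXB19b resembled the striatum array of SM, a strain outside the RI sets (r = 0.647), and was left out. AXB15 and AXB19 are both Ctsc-high, so an exchange of their labels would not change a class. The matches do not form such a simple exchange, and how they arose was not tested. BXA1 and BXA8 were near alike (r = 0.833 in hippocampus), as were BXD24a and BXD24b (r = 0.653). The striatal marker Drd1 and the hippocampal markers Prox1 and Fibcd1 followed the tissue labels, while the hippocampal marker Wfs1 did not. Wfs1 averaged 10.3 in Ctsc-high and 10.55 in Ctsc-low hippocampus, against 10.91 and 10.97 in striatum. Drd1, the dopamine receptor of striatal output neurons, averaged 12.55 in Ctsc-high and 12.58 in Ctsc-low striatum, and 8.48 in Ctsc-high and 8.63 in Ctsc-low hippocampus, across tables that may be scaled differently.

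All other probes were compared between the classes with the strain set as a covariate, in limma, with p-values adjusted over all probes tested in a tissue (Benjamini-Hochberg, threshold 0.05). In hippocampus 32 of 12253 probes passed, 0.261% of those tested, and 30 of them were linked, 3.56% of the 842 chromosome 7 probes tested. In striatum 29 of 12204 passed, 0.238%, and 26 were linked, 3.1% of 839. Of the linked probes 22 were higher (2.61%) and 8 lower (0.95%) in Ctsc-high hippocampus, and 21 were higher (2.5%) and 5 lower (0.596%) in Ctsc-high striatum. At an unadjusted p under 0.05 there were 105 linked probes in hippocampus (12.5%) and 108 in striatum (12.9%). The probes that passed after adjustment stand for 27 genes in hippocampus and 23 in striatum. A set of 23 linked probes passed in both tissues, 76.7% of the hippocampus and 88.5% of the striatum calls, and 23 of 23 had the same direction in both. Over all chromosomes 25 of the 11693 probes tested in both tissues passed in both, 0.214%. The tissues came from the same strains, so this repeats the measurement but not the sorting of chromosomes.

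The called probes clustered around and beyond Ctsc in the order of protein-coding genes. In hippocampus 25% of the 32 probes within 50 genes on the distal side were called, 25% of the 40 from there to 100 genes, 21.4% of the 14 from there to 200 genes and 3.85% of the 104 from there to 500 genes. Beyond 500 genes 0 of 181 were called. On the proximal side 11.1% of 9 probes within 50 genes were called, 5.88% of the 34 from there to 100 genes and 1.61% of the 62 from there to 200 genes, and beyond 200 genes 0 of 364. In striatum the share called was 18.2% of 33, 21.4% of 42 and 21.4% of 14 in the first 3 distal stretches, and 12.5% of 8, 5.56% of 36 and 1.61% of 62 in the first 3 proximal ones. The farthest calls were Sv2b on the proximal side in both tissues, at place -121 from Ctsc, and on the distal side Tmem159 in hippocampus, 455 genes away, and Gde1 in striatum, 433 genes away.

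**Figure D2:**
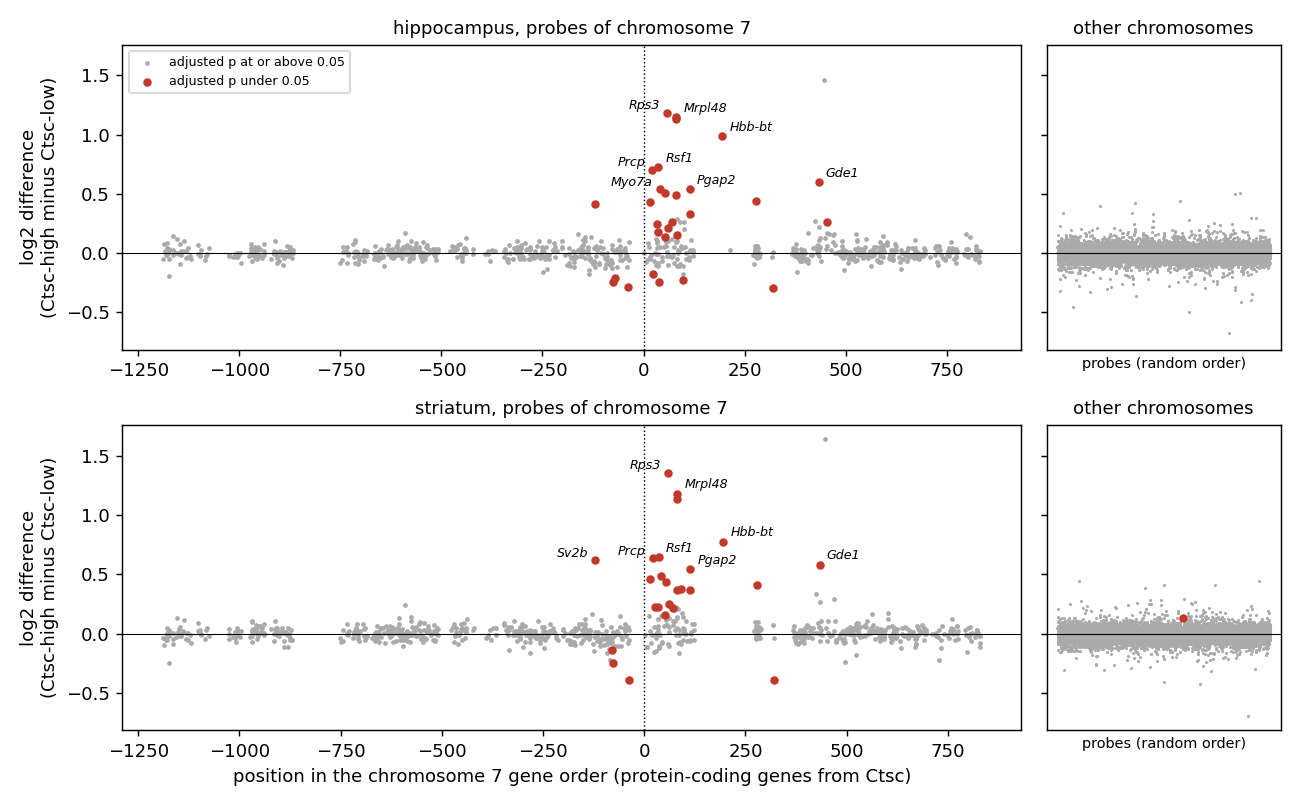
Log2 difference of each probe, Ctsc-high minus Ctsc-low, against its place in the chromosome 7 gene order counted in protein-coding genes from Ctsc (left), with the probes of all other chromosomes in random order (right), for hippocampus above and striatum below. Red points have an adjusted p under 0.05 in limma: 30 linked probes in hippocampus, of which 29 can be placed in the order, 26 linked and 1 unlinked in striatum, of which 25 linked can be placed. Grey points do not pass. The grey point above the rest on the distal side is Thumpd1, at 1.46 in hippocampus and 1.64 in striatum.

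The annotated genes beside Ctsc were mostly not called. On the proximal side the 36 protein-coding genes between Ctsc and Zfand6 include 32 olfactory or vomeronasal receptor genes, and none of the 21 genes with a probe was detected widely enough to be tested. Rab38, Ctsc's distal neighbour and a small GTPase of melanosome transport, and Tyr, the tyrosinase of pigment synthesis, were detected in no Ctsc-low strain, and Rab38 in 1 Ctsc-high hippocampus array. Grm5, the metabotropic glutamate receptor gene next to Ctsc, has no probe on the array. Of the 5 nearest genes tested on each side, Tlnrd1, Abhd17c, Arnt2, Fah and Zfand6 proximally and Tmem135, Hikeshi, Eed, Sytl2 and Tmem126a distally, only Fah passed. The next tested genes on the distal side, beginning with Tmem126b 15 genes away, include called ones that lie nearer than Fah. Tmem135, 2 genes away, averaged 7.73 ± 0.13 in both Ctsc-high and Ctsc-low hippocampus (adjusted p = 0.997, limma). Among the other 8 genes the largest difference in striatum was 0.15 ± 0.067 (SE) for Sytl2, a Rab27 effector of vesicle transport, with an adjusted p of 0.994.

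Fah, 38 genes from Ctsc on the proximal side, encodes the last enzyme of tyrosine breakdown. It read 10.17 to 10.72 with a median of 10.5 in Ctsc-high hippocampus, against 10.21 to 11.05 with a median of 10.83 in Ctsc-low hippocampus. The ranges overlapped, and 11 of 68 strains lay nearer to the other class. The difference was -0.29 ± 0.038 in hippocampus (SE, adjusted p = 2.98e-07) and -0.39 ± 0.045 in striatum (adjusted p = 3.92e-09, limma). It was negative in all 3 sets, at -0.27 in BXD, -0.28 in AXB/BXA and -0.36 in BXH hippocampus. Farther out on the same side Iqgap1, a scaffold of the actin cytoskeleton, was lower in Ctsc-high strains by -0.25 in hippocampus and -0.25 in striatum (adjusted p = 0.0264 and 0.0273). Sv2b, a synaptic vesicle glycoprotein, was higher by 0.41 ± 0.081 in hippocampus and 0.62 ± 0.098 in striatum (adjusted p = 0.00182 and 1.71e-05).

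Some differences on the distal side had the same sign in all 3 sets, though not always the same size. Pgap2, which matures the lipid anchor of surface proteins, passed with 2 probes in both tissues, ILMN_2751492 at 0.54 in each and ILMN_1235347 at 0.33 in hippocampus and 0.37 in striatum. Probe ILMN_2751492 read 7.59 to 8.71 with a median of 8.44 in Ctsc-high and 7.44 to 8.5 with a median of 7.71 in Ctsc-low hippocampus. The classes overlapped in range but not in their middles, and the difference was 0.6 in BXD, 0.48 in AXB/BXA and 0.54 in BXH strains. Myo7a, an unconventional myosin known from hair cells and retina, was higher by 0.54 in hippocampus and 0.49 in striatum (adjusted p = 8.44e-10 and 7.96e-08). Its probe was dim, detected in 81.1% of Ctsc-high and 12.9% of Ctsc-low hippocampus arrays, so its Ctsc-low level is near background. Dgat2, the enzyme of the last step of triglyceride synthesis, read 11.03 to 12.12 in Ctsc-high and 10.55 to 11.97 in Ctsc-low hippocampus, a difference of 0.51 ± 0.064. Within the sets the Dgat2 difference was 0.69 in BXD, 0.34 in AXB/BXA and 0.42 in BXH hippocampus. Trim3, a brain-enriched ubiquitin ligase, was higher by 0.44 and 0.41 at ILMN_1259939, but its other probe ILMN_3134607 averaged 10.32 in Ctsc-high and 10.33 in Ctsc-low hippocampus (adjusted p = 0.994).

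The other called linked genes had smaller differences. Ints4, a subunit of the complex that ends small nuclear RNAs, was higher by 0.25 in hippocampus and 0.23 in striatum. Lipt2, which starts lipoylation of mitochondrial enzymes, was higher by 0.27 and 0.21 at ILMN_3145474. This probe was detected in 67.6% of Ctsc-high and 22.6% of Ctsc-low hippocampus arrays. In striatum it was detected in 48.6% and 0%, so it entered the test there through the Ctsc-high strains alone. The other Lipt2 probe, ILMN_2744228, did not pass, at 0.12 and 0.1 (adjusted p = 0.071 and 0.105, limma). Uvrag, a factor of autophagy and endosome traffic, was higher by 0.14 and 0.16, and without AXB15, AXB19 and BXD24a its adjusted p in striatum was 0.0691. Arrb1, the adaptor beta-arrestin that uncouples receptors from G proteins, was higher by 0.21 and 0.25 at ILMN_2753077, a probe detected in 37.8% of Ctsc-high and 22.6% of Ctsc-low hippocampus arrays. In striatum the difference of this probe was 0.48 in BXD, -0.07 in AXB/BXA and 0.48 in BXH (interaction adjusted p = 0.000567). The 3 other Arrb1 probes tested did not pass, at -0.1 and -0.11 for ILMN_1229853, 0.1 and 0.06 for ILMN_1233970 and -0.02 and 0.14 for ILMN_3096335 in hippocampus and striatum. Tested in both tissues and called in hippocampus alone were, beside Aqp11 and Inppl1 described further on, Rab6a, a GTPase of Golgi traffic, at 0.15, Aamdc at 0.18, Tmem159 at 0.26, Fam181b at -0.17 and the zinc finger gene Zfp592 at -0.21. Nars2, the mitochondrial asparaginyl-tRNA synthetase, at 0.23 and Fes, a tyrosine kinase, at -0.14 were called in striatum and too dim to be tested in hippocampus. The Fes probe was detected in 10.8% of Ctsc-high and 46.7% of Ctsc-low striatum arrays. Stard10, tested in both, was called in striatum alone. The other tested probes of Rab6a and Tmem159 did not pass in either tissue.

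The beta-globin genes, 195 genes from Ctsc, moved in opposite directions. Mouse strains carry one of several beta-globin haplotypes; B6 carries the single haplotype with Hbb-bs and Hbb-bt, and DBA, AJ and C3H the diffuse one with Hbb-b1 and Hbb-b2. Hbb-bt read 7.24 to 10.18 with a median of 8.78 in Ctsc-high and 7.19 to 9.44 with a median of 7.52 in Ctsc-low hippocampus. Hbb-b2 read 7.18 to 9.12 with a median of 7.42 in Ctsc-high and 7.27 to 9.53 with a median of 8.34 in Ctsc-low hippocampus. Hbb-bt was thus higher and Hbb-b2 lower in the Ctsc-high strains, with 13 of 68 strains nearer to the other class for each. Hbb-b2 was detected in 18.9% of Ctsc-high and 83.9% of Ctsc-low hippocampus arrays, and in 18.9% and 83.3% in striatum. It entered the tests mainly through the Ctsc-low strains. Hbb-bt was detected in 91.9% and 32.3% in hippocampus, and in 91.9% and 53.3% in striatum. In hippocampus the lower class of each probe thus lies mostly near background, which limits the size of the difference. The differences were 0.99 ± 0.161 for Hbb-bt (adjusted p = 3.77e-05) and -0.76 ± 0.121 for Hbb-b2 (adjusted p = 2.1e-05) in hippocampus, and 0.77 and -0.57 in striatum. Globin transcripts are most abundant in red blood cells, and the summed signal of the blood markers was 12.83 to 15.04 in Ctsc-high and 12.52 to 14.58 in Ctsc-low hippocampus, whose part in these differences was not tested. Hba-a1, the unlinked alpha-globin gene, differed by 0.14 ± 0.109 in hippocampus and -0.09 ± 0.098 in striatum, with adjusted p of 0.96 and 0.994. The globin genes are near-identical copies, and reads of one by the probe of another were not tested.

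Some of the large linked differences depended on the strain set. Whether the class difference varied between the sets was tested as an interaction of class and set, which 13 of 12253 probes passed in hippocampus (0.106%) and 18 of 12204 in striatum (0.147%). Linked probes were 12 of these in hippocampus (1.43%) and 16 in striatum (1.91%), with 10 in both. Unlinked probes were 1 in hippocampus (0.00933%) and 2 in striatum (0.0187%). In 8 of the 12 and 12 of the 16 the difference was larger in BXD and in BXH than in AXB/BXA, and in 4 of each it was largest in AXB/BXA. The parental arrays can be set beside this. The B6 array was set against the other parent of each set, with 1 array each and so with no test. Of the 30 linked hippocampus calls the sign of B6 minus the other parent matched the class difference within the set for 27 in BXD, 24 in AXB/BXA and 28 in BXH. In striatum it matched for 25, 25 and 24 of 26. Where B6 and the other parent differed by at least 0.5, the median difference within the set was 0.64 in BXD, 0.5 in AXB/BXA and 0.54 in BXH hippocampus, and where they differed by less it was 0.26, 0.13 and 0.29. The parents gave rise to the strains and are not independent of them.

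**Figure D3:**
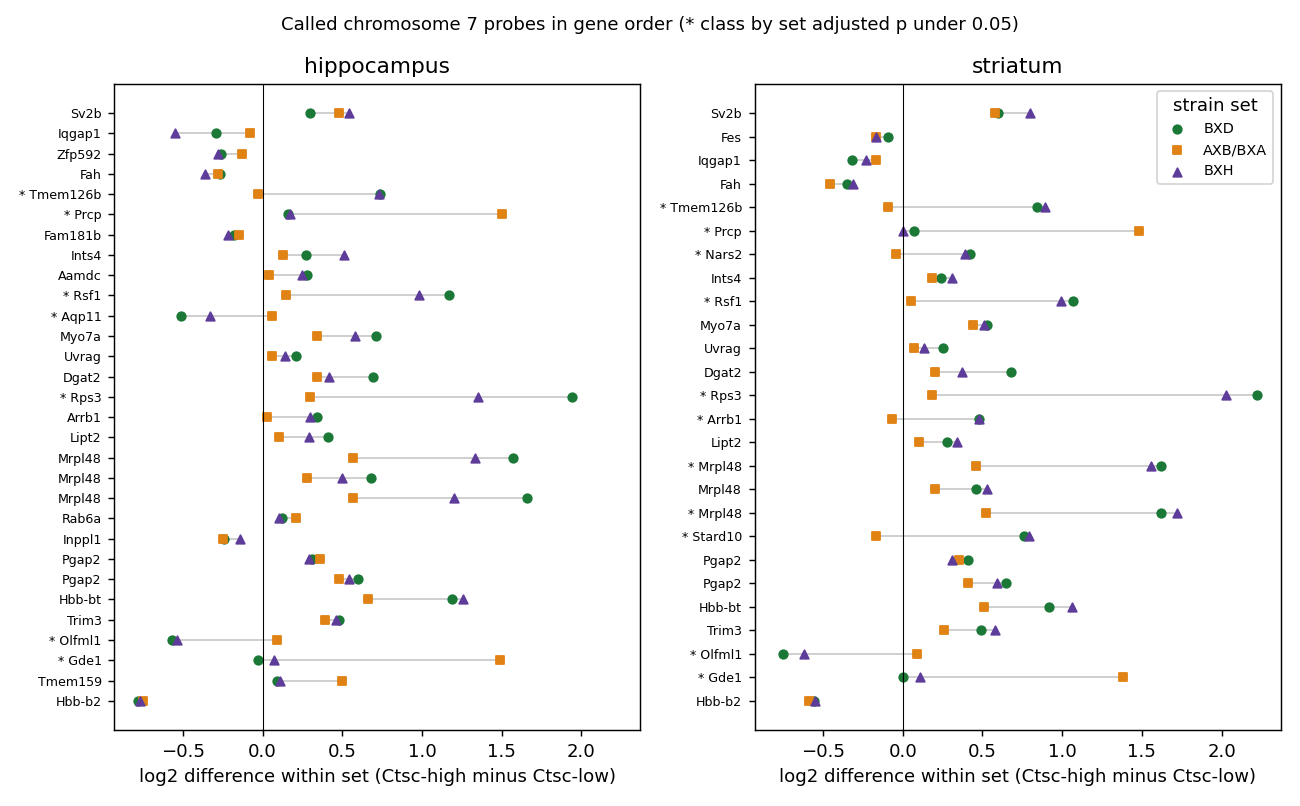
Log2 difference within each strain set, Ctsc-high minus Ctsc-low, of the called linked probes, which run in gene order from the proximal to the distal side with the unplaced Hbb-b2 last, 30 probes in hippocampus and 26 in striatum. Green circles are BXD, orange squares AXB/BXA and purple triangles BXH, and a star marks an interaction of class and set with an adjusted p under 0.05. Prcp and Gde1 stand out in AXB/BXA, and Rps3, Rsf1 and Tmem126b in BXD and BXH.

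Rps3 and Mrpl48 had the largest differences among the called probes that the platform annotation places on chromosome 7. Rps3 encodes a protein of the small ribosomal subunit that also acts in DNA repair. Its probe ILMN_2594103 read 10.63 to 13.58 with a median of 12.96 in Ctsc-high hippocampus, against 10.21 to 13.29 with a median of 11.04 in Ctsc-low hippocampus. The difference was 1.18 ± 0.167 in hippocampus, or 2.27-fold, and 1.36 ± 0.188 in striatum, or 2.56-fold (adjusted p = 1.07e-06 and 8.17e-07). Within the sets it was 1.94 in BXD, 0.3 in AXB/BXA and 1.35 in BXH hippocampus (interaction adjusted p = 0.00647). The parental arrays read 13.15 in B6, 10.24 in DBA, 12.95 in AJ and 10.04 in C3H, so AJ resembled B6. The other Rps3 probe, ILMN_2637639, named like the further probes of Trim3 and Gde1 after its values were seen, averaged 11.91 ± 0.38 in Ctsc-high and 11.93 ± 0.35 in Ctsc-low hippocampus (adjusted p = 0.982), and 11.53 and 11.61 in striatum. The probes of Rps3 therefore disagree, and which of them follows the amount of transcript was not tested. The study raised the possibility that a SNP within a probe's sequence alters its binding. Whether the parents differ in sequence under any linked probe described here was not tested, including genes read by a single probe.

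Mrpl48, a protein of the mitochondrial ribosome, agreed across 3 probes. ILMN_2663679 read 9.35 to 11.68 with a median of 11.39 in Ctsc-high and 9.13 to 11.49 with a median of 9.63 in Ctsc-low hippocampus. Its difference was 1.15 ± 0.134 in hippocampus and 1.18 ± 0.132 in striatum, ILMN_1216122 gave 1.13 in both and ILMN_1236131 gave 0.49 and 0.36. All 6 values passed, with adjusted p between 2.12e-09 and 4.47e-06, and 2 further Mrpl48 probes were too dim to be tested. Only 10 of 68 strains lay nearer to the other class for ILMN_2663679 in hippocampus. B6 read 11.46, DBA 9.05, AJ 10.86 and C3H 9.4 at this probe. Within the sets ILMN_2663679 differed by 1.66 in BXD, 0.57 in AXB/BXA and 1.2 in BXH hippocampus, and by 1.62, 0.52 and 1.72 in striatum. Its interaction was called in striatum alone (adjusted p = 0.0359, limma), as was that of ILMN_1216122 (0.0232).

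A group of distal genes had larger differences in BXD and BXH than in AXB/BXA. The interaction tests whether the sets differ and not the difference within a set. In BXH alone, with 4 Ctsc-high and 7 Ctsc-low strains in hippocampus, 0 linked probes were called there. Tmem126b, an assembly factor of mitochondrial complex I that lies 15 genes from Ctsc, read 8.44 to 9.79 with a median of 9.18 in Ctsc-high and 8.05 to 9.57 with a median of 8.58 in Ctsc-low hippocampus. Its difference was 0.74 in BXD and 0.73 in BXH against -0.03 in AXB/BXA (interaction adjusted p = 1.19e-06), and 0.84, 0.89 and -0.09 in striatum (3.81e-06). B6 and AJ both read 9.3 and DBA and C3H 8.16 and 8.09. Its neighbour Tmem126a, which has a related product, averaged 10.59 in Ctsc-high and 10.52 in Ctsc-low hippocampus and did not pass. Rsf1, the histone-binding subunit of a chromatin remodelling complex, differed by 1.17 in BXD, 0.98 in BXH and 0.15 in AXB/BXA hippocampus. Its probe was detected in 94.6% of Ctsc-high and 45.2% of Ctsc-low hippocampus arrays.

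Stard10, a lipid transfer protein, showed the same pattern with 0.58, 0.58 and -0.19 in BXD, BXH and AXB/BXA hippocampus. It passed for the class only in striatum, at 0.38 ± 0.09 (adjusted p = 0.0308), and its other probe did not pass in either tissue. The pattern in Aqp11 and Olfml1 had the opposite sign. Aqp11, an aquaporin of intracellular membranes, was lower by -0.51 in BXD and -0.33 in BXH hippocampus against 0.06 in AXB/BXA. In striatum its class difference was -0.01 ± 0.053, and its interaction was not called there (adjusted p = 0.999). The other Aqp11 probe, ILMN_2670407, was too dim to be tested. Without the filter it went the other way, at 0.14 in hippocampus and 0.09 in striatum. Olfml1, a secreted olfactomedin-like protein 320 genes from Ctsc, was lower by -0.57 in BXD and -0.54 in BXH hippocampus against 0.09 in AXB/BXA.

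Prcp and Gde1 showed the reverse arrangement. Prcp, a serine carboxypeptidase of lysosomes that cleaves angiotensin and melanocortin peptides, lies 22 genes from Ctsc. It read 7.6 to 9.56 with a median of 9.13 in Ctsc-high and 7.09 to 9.28 with a median of 8.88 in Ctsc-low hippocampus. Of the 12 Ctsc-low AXB/BXA strains 11 lay on the side of AJ, and these were the lowest Ctsc-low readings of all sets. The difference was 1.5 in AXB/BXA, 0.16 in BXD and 0.17 in BXH hippocampus (interaction adjusted p = 1.22e-07), and 1.48 in AXB/BXA and 0.07 in BXD striatum (4.46e-08). B6 read 9.08, DBA 9.09 and C3H 9.22, against 7.36 in AJ. Gde1, a phosphodiesterase that releases glycerol phosphate from lipids, lies much farther away, 433 genes from Ctsc. Its probe ILMN_2634264 differed by 1.49 in AXB/BXA, -0.03 in BXD and 0.07 in BXH hippocampus (interaction adjusted p = 2.81e-05), with B6 at 11.8 and AJ at 10.22. The other Gde1 probes disagreed with it: ILMN_2986315 averaged 13.59 in Ctsc-high and 13.54 in Ctsc-low hippocampus and ILMN_2676481 averaged 12.2 and 12.09, and neither passed in either tissue.

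**Figure D4:**
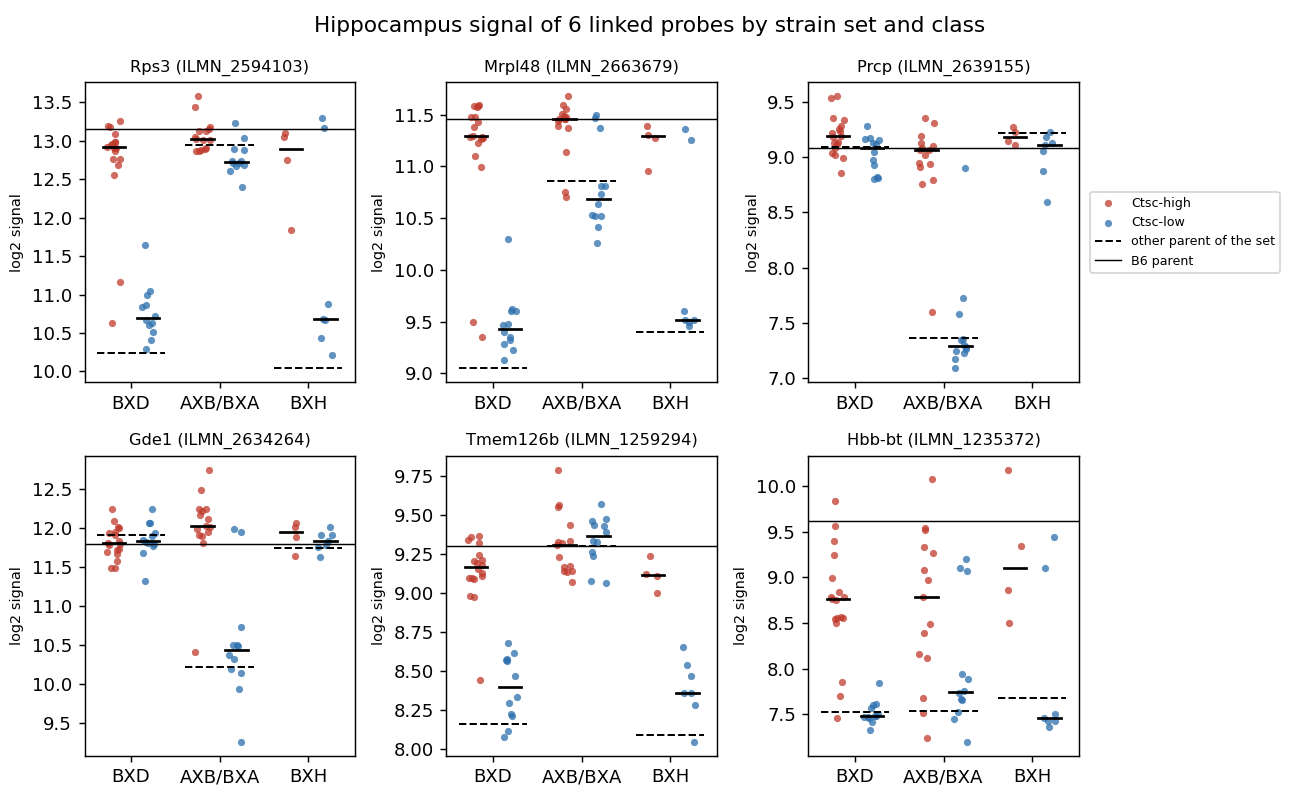
Log2 signal in hippocampus of 6 linked probes in each strain, by strain set, Ctsc-high in red on the left of each pair and Ctsc-low in blue on the right, with black bars at the medians. The solid line is the B6 array and the dashed lines are the arrays of DBA, AJ and C3H over the set each parent founded. Rps3, Mrpl48 and Tmem126b have their lowest strains in BXD and BXH, toward the DBA and C3H levels, while Prcp and Gde1 have theirs in AXB/BXA, toward the AJ level.

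Strains whose level followed the other parent than their Ctsc level did recurred from gene to gene. For this description a strain's probe level was assigned to B6 or to the other parent of its set at the midpoint of their arrays, where these differed by at least 1. In the 30 BXD strains Rps3, Rsf1 and Mrpl48 (ILMN_1216122) went against the Ctsc class in BXD28 and BXD42 alone in hippocampus, and in striatum Rps3 and Mrpl48 did so in the same 2. Both are Ctsc-high strains with the DBA level of these genes. In AXB/BXA, Prcp went against the class in AXB5 and BXA2 in both tissues, 2 of 27 strains, and Gde1 in 3 of 27 in each tissue, AXB5 and BXA24 among them both times. In BXH, Rps3 and Mrpl48 went against it in BXH19, and in BXH2 where only hippocampus was measured. At 195 genes from Ctsc more strains did: for Hbb-bt 8 of 30 BXD strains in hippocampus and 5 in striatum, of which 4 were the same. The Hbb-bt levels spread by 0.72 in Ctsc-high hippocampus (SD, n = 37).

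A pair of probes without a gene or chromosome in the platform annotation used here had the fewest strains nearer to the other class, 2 and 7, against at least 9 for every called linked probe in hippocampus and at least 8 in striatum. ILMN_2769656 read 7.6 to 10.17 with a median of 9.6 in Ctsc-high and 7.35 to 8.41 with a median of 7.61 in Ctsc-low hippocampus. Its difference was 1.89 ± 0.098 in hippocampus and 1.68 ± 0.09 in striatum (adjusted p = 1.56e-25 and 3.91e-24), and only AXB5 and BXD28 lay on the side of the other class, in both tissues. ILMN_1214850 differed by 1.5 ± 0.14 and 1.4 ± 0.148, with 7 strains on the other side in each tissue, AXB5, BXD28, BXD42 and BXH19 among them. The study's own list of associated transcripts names ILMN_2769656 as Picalm, a clathrin assembly gene of chromosome 7, which lies among the distal neighbours of Ctsc. It was kept out of the counts of linked probes here, which follow the platform annotation. The pair makes 2 of 698 tested probes without a chromosome, 0.287%, in each tissue. The difference of ILMN_2769656 was 1.93 in BXD, 1.8 in AXB/BXA and 2 in BXH hippocampus, and its interaction was not called (adjusted p = 0.947).

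Thumpd1, a helper protein of RNA acetylation 447 genes from Ctsc, had the largest class difference among the tested probes that the platform annotation places on chromosome 7, in both tissues, and was not called. The unannotated ILMN_2769656 exceeded it. It was singled out after its values were seen. It read 6.89 to 10.82 with a median of 10.58 in Ctsc-high and 6.98 to 10.83 with a median of 7.14 in Ctsc-low hippocampus, so each class held strains at both levels. The difference was 1.46 ± 0.393 in hippocampus (adjusted p = 0.144) and 1.64 ± 0.406 in striatum (adjusted p = 0.0565), with 20 of 68 and 19 of 67 strains nearer to the other class. B6 read 10.62, against 7.16 in DBA, 7.16 in AJ and 7.09 in C3H.

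Of the unlinked genes 1 was called, in striatum. In hippocampus 0 of 10713 probes of other chromosomes passed in limma, and 485 (4.53%) had an unadjusted p under 0.05. In striatum 1 of 10667 passed, 0.00937%, and 421 (3.95%) had an unadjusted p under 0.05. The one call was Fis1 on chromosome 5, an outer-membrane protein of mitochondrial division. It read 11 to 11.66 with a median of 11.45 in Ctsc-high and 11.06 to 11.56 with a median of 11.33 in Ctsc-low striatum, and the ranges overlapped almost fully. The difference was 0.13 ± 0.032 (adjusted p = 0.0337), with 0.23 in AXB/BXA, 0.06 in BXD and 0.08 in BXH, and in hippocampus it was 0.05 ± 0.04 (adjusted p = 0.96). Without AXB15, AXB19 and BXD24a, whose arrays did not match across the tissues, the adjusted p was 0.0691.

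Genes that act with cathepsin C were not called. Of the 13 serine proteases it activates 12 have a probe, but only Gzmm in hippocampus and Gzmm and Prtn3 in striatum were detected widely enough to be tested. Gzmm, a granzyme of natural killer cells, averaged 7.64 in Ctsc-high and 7.62 in Ctsc-low hippocampus. Among the cathepsins that process cathepsin C and the cystatins that inhibit it 0 of 8 probes in hippocampus and 0 of 9 in striatum passed, and 0 had an unadjusted p under 0.05 in either. Their median difference was 0.017 in hippocampus and -0.009 in striatum, against -0.002 over all probes in each. Ctss, the microglial cathepsin S, averaged 8.46 in Ctsc-high and 8.5 in Ctsc-low hippocampus. Of 20 probes for lysosomal proteins 0 passed in either tissue, with 3 at an unadjusted p under 0.05 in hippocampus and 0 in striatum, and a median difference of 0.001 and 0. Lamp2, a lysosomal membrane protein, was the nearest to a call in hippocampus at 0.12 ± 0.049 (adjusted p = 0.904).

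Glutamate receptor signalling around Grm5 and pigment genes were examined because Grm5 and Tyr adjoin Ctsc. Of the signalling genes 5 of 13 could be tested, and 0 of 11 probes in hippocampus and 0 of 10 in striatum passed, with medians of -0.019 and 0.014 and 0 and 1 probes at an unadjusted p under 0.05. The lowest p was that of Plcb4, a phospholipase C, at 0.07 ± 0.031 in striatum (adjusted p = 0.994). All 8 pigment genes have probes and 0 were tested, being dim. The study states that some of its strains are albino through a recessive mutation of Tyr. Genotypes at Tyr were not read here, so how far the Ctsc classes are also sorted by that mutation was not tested. Of the genes at the chromosome 7 behavioural loci named by the study only Alg8 could be tested. Alg8, a glucosyltransferase of protein glycosylation 30 genes from Ctsc, did not pass for the class, at -0.10 ± 0.038 in hippocampus and -0.15 ± 0.044 in striatum (adjusted p = 0.796 and 0.309, ILMN_1237963). This probe did pass the interaction, with -0.28 in BXD, -0.11 in BXH and 0.09 in AXB/BXA hippocampus (adjusted p = 0.0084). Another Alg8 probe, ILMN_2765304, passed neither test (interaction adjusted p = 0.741 in hippocampus and 0.999 in striatum, limma). That probe was dim, detected in 35.1% of Ctsc-high and 45.2% of Ctsc-low hippocampus arrays.

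Markers of the cell types in the tissue were read alongside, since a change in cell makeup and a change in RNA per cell cannot be told apart in whole tissue. Of 12 microglial probes 0 passed in either tissue, with 0 in hippocampus and 1 in striatum at an unadjusted p under 0.05, and their median difference was -0.034 in hippocampus and -0.014 in striatum. The log2 of their summed signal was 12.34 to 12.99 in Ctsc-high and 12.36 to 13.05 in Ctsc-low hippocampus. Tmem119, a marker of resident microglia, came nearest, at -0.13 ± 0.046 in striatum (adjusted p = 0.782). Oligodendrocyte, astrocyte, endothelial, blood and neuronal markers likewise had 0 calls. Choroid plexus markers had the largest median, 0.184 in hippocampus and -0.093 in striatum, with 0 of 8 probes passing, and in hippocampus 1, of the linked gene Folr1, at an unadjusted p under 0.05. Their summed signal spread widely in both classes, from 12.1 to 15.06 in Ctsc-high and 11.2 to 15.21 in Ctsc-low hippocampus.

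Whether the class differences differed between the tissues was tested as well. The difference between the hippocampus and the striatum effect was tested within strains for 11693 probes, and 0 passed in limma, while 475 (4.06%) had an unadjusted p under 0.05. Among linked probes that was 54, or 6.71%. The lowest p was that of Inppl1, a phosphoinositide phosphatase 97 genes from Ctsc, whose effect in hippocampus minus that in striatum was -0.24 ± 0.062 at ILMN_1215550 (unadjusted p = 0.000193, adjusted p = 0.971). At this probe Inppl1 averaged 9.3 in Ctsc-high and 9.52 in Ctsc-low hippocampus (adjusted p = 0.0105), and 9.92 in both Ctsc-high and Ctsc-low striatum. The other Inppl1 probes did not pass for the class in either tissue.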

How the data were processed

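The authors read total RNA of 198 arrays on the Illumina MouseRef-8 v2.0 platform and deposited signal intensities normalized with the rank invariant option of BeadStudio (version not given in the sources used here), according to the study's methods, together with each probe's detection p-value. A second deposited signal table, named as not normalized, held the same values in hippocampus (100.0% equal) and other values in striatum (0.744% equal). Whether the hippocampus values, which set the classes, were normalized is therefore not settled by the files. Intensities below 16 (8 values) were set to 16 and log2 values were computed, so fold changes are on that scale. The median intensity per array was 168.5 to 275.2, and the number of strains limits the precision. Probes with a detection p under 0.01 in at least 20% of a tissue's arrays used were tested one by one, and probes of a gene were not merged. Of 25697 probes 23978 carry a gene symbol in the platform annotation and 1719 do not. Gene order was taken from RefSeq (assembly GRCm38.p6), with distances counted in protein-coding genes.

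Each tissue was fitted in limma 3.58.1 (R 4.3.3) with class and strain set, moderated variances and Benjamini-Hochberg adjustment over all probes tested. A class by set interaction and the within-strain tissue difference were fitted likewise. The fit treats strains as independent. The code was tested on simulated data. All 3 Ctsc probes were left out of the tests, where 2 had been planned. The hippocampus array AXB19b was left out in advance, before the arrays were matched across the tissues. It detected 22.4% of probes. Array chips are not named in the files used, so chip was not fitted. The members, lists and naming rule were chosen with earlier results of these data known. The rule named the 5 nearest tested genes on each side of Ctsc, the 10 largest differences in each direction called in both tissues, called unlinked and unannotated probes, the smallest interaction and tissue p-values, and the smallest p-values in each list. The text adds all other called linked genes. Alternatives were another normalization, other floors and detection filters, no covariate, single sets, averaged or omitted near-alike or mismatched strains, division by the striatum probe and a fold minimum of 1.2. The alternative that also averaged BXA1 and BXA8 was chosen after seeing the data.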

Additional observations from a re-analysis of the deposited data

Results flagged for a closer look

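Class differences that varied between the strain sets were the only results that met a criterion for a closer look. On chromosome 7 they were 12 probes in hippocampus and 16 in striatum. Those not described above were Rccd1 and Kctd14 in both tissues, Clns1a in hippocampus, and Coa4 and Rnf121 in striatum. Rccd1 differed by -0.42 in AXB/BXA, 0.05 in BXD and 0.32 in BXH hippocampus (interaction adjusted p = 0.00437, limma). In striatum Rccd1 differed by -0.66, 0.04 and 0.21 (0.000111). Nars2, described above for its class difference, passed the interaction in striatum too (5.4e-05). Off chromosome 7, Cbwd1 on chromosome 19 differed by 1.21 in AXB/BXA, -0.32 in BXD and 0.46 in BXH hippocampus (interaction adjusted p = 0.00598, limma) and by 1.11, -0.22 and 0.35 in striatum (0.0202). B6 read 9.28 at this probe in hippocampus, DBA 8.49, AJ 6.99 and C3H 8.43. D8Ertd738e on chromosome 8 differed by 0.37 in AXB/BXA, -0.17 in BXD and -0.05 in BXH striatum (interaction adjusted p = 0.00316), and in hippocampus its interaction was not called (adjusted p = 0.447).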

How the results depend on the processing

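The count of linked calls in hippocampus was 25 to 31 under the other normalization, the other floors and filters, without the covariate, with near-alike strains averaged, without mismatched strains, with division by the striatum probe, and in BXD alone, against 30 as reported. In striatum it was 20 to 28, against 26. It fell to 4 and 5 in AXB/BXA alone, and to 0 and 1 in BXH alone, in hippocampus and striatum. AXB/BXA alone held 15 Ctsc-high and 12 Ctsc-low strains, against 18 and 12 in BXD alone, and the cause was not tested. Asking for at least 1.2-fold as well left 19 in each tissue. Of the linked calls 21 of 30 in hippocampus and 20 of 26 in striatum were also called in BXD alone. Unlinked calls in hippocampus were 4 in BXD alone. In striatum they were 2 in AXB/BXA alone, and 0 without the covariate, with BXA1 and BXA8 averaged too, without the mismatched strains, in BXH alone and at 1.2-fold. The adjusted p of Fis1 was 0.111 without the covariate, 0.0559 with BXA1 and BXA8 averaged and 0.0701 under the other normalization; the cause was not tested.

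Single genes changed sign only within single sets. In AXB/BXA alone Olfml1 was 0.088 in hippocampus and 0.087 in striatum, Tmem126b -0.026 and -0.094, Aqp11 0.065 in hippocampus, and in striatum Nars2 was -0.039, Arrb1 -0.071 and Stard10 -0.17. Gde1 was -0.034 in BXD hippocampus and Prcp -0.00026 in BXH striatum. Interaction calls were 13 or 14 in hippocampus and 15 to 18 in striatum under the alternatives run, and 0 tissue differences were called under any of them. Chip as a block was not run. No paired analysis was possible because Ctsc-high and Ctsc-low arrays come from different strains and the replicate numbers in the labels belong to B6Cc3 arrays, which enter no comparison. The tissue difference alone was tested within strains. Dim probes such as Myo7a and the Ctsc-low Ctsc readings sit near background, where differences are understated.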

Other observations

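The RI strain left out, AXB19b, read 8.326 at Ctsc probe ILMN_3008858 in hippocampus and 8.732 in striatum. Its hippocampus array detected only 22.4% of probes. Me3, the mitochondrial malic enzyme 5 genes from Ctsc, was too dim to be tested, with 0 hippocampus arrays detected, and was looked at after its values were seen. Without the filter its readings differed by -0.15 in hippocampus (unadjusted p = 4.53e-06, limma) and by -0.14 in striatum (unadjusted p = 2.17e-05).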
